A study of Mus musculus with 6 samples.

Results

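The genes of the 4 mouse Hox clusters were examined in muscle-derived stem cells (MDSC) of 2 genotypes and in embryonic stem cells (ESC). Members were all genes whose RefSeq symbol is Hox followed by the cluster letter and a number, found through the accession that the array files give for each probe. All 39 such genes had a probe, 43 probes in all, out of 37153 genes and unnamed features measured by 55658 probes. The A cluster had 11 members, the B cluster 10, and the C and D clusters 9 each. MDSC are the cells that adhere last when hindlimb muscle is dissociated and serially replated. They came from male mice aged 5 weeks, either wild type (WT) or labelled null for Mstn, the gene of the secreted muscle growth inhibitor myostatin, and were used at passage 1, with 2 isolations of each. W4, an established mouse ESC line, supplied 1 array at passage 12 (replicate 1) and 1 at passage 15 (replicate 2). None of the cultures was treated. The labels do not give the Mstn allele, the strain of the mice or how many animals went into an isolation. The ESC arrays are passages of 1 line, so their spread is not a spread between lines. Those cells were grown on inactivated embryonic fibroblasts, which a short plating was meant to remove, and the labels call the colonies free of feeders.

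Hox genes encode homeodomain transcription factors. Within a cluster they lie in the order in which they act along the body axis, so that low-numbered genes act in the hindbrain and neck and high-numbered genes in the lumbar, sacral and tail regions and in the distal limb. Genes of the same number in different clusters are paralogues and often act together. Adult mesenchymal cells keep a pattern of Hox expression that reflects the place they came from, while in undifferentiated ESC the clusters are mostly held silent by Polycomb proteins.

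Each level below is a log2 signal relative to the array's 75th percentile, so that a level of 0 is that percentile, and each difference is a log2 difference of group means. A gene is called well above background where the scanner software flagged it so. Of the 59305 non-control spots on an array, 53.3% to 64.6% passed that flag and 0 were saturated. The number of arrays limits the precision. The labels were checked with marker genes. The 8 pluripotency markers had mean levels of 5.94 and 6.13 on the ESC arrays and of -4.30 to -3.90 on the MDSC arrays. The 10 fibroblast markers had mean levels of 5.23 to 6.72 on the MDSC arrays and of 2.64 and 0.375 on ESC replicates 1 and 2, where 9 of the 10 were well above background on both arrays. Of 7 myogenic markers, 5 passed the flag on each MDSC array, while Myf5 was so on none and Pax7 on WT replicate 1 alone of the 4. Against its label, the Mstn probe gave clear signal in cells labelled Mstn-null, where it was well above background on both arrays (-3.06 and -2.47), and in no other sample. Where that probe lies relative to the deleted part is not given in the sources used here, so the genotype labels could not be checked with it. A swap of those labels, which was not tested, would turn the sign of each genotype difference below and exchange the WT and Mstn-null values.

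Signal of Hox genes was widespread in MDSC. Of the 39 genes, 30 passed the background flag on each of the 4 MDSC arrays, 21 on both ESC arrays and 20 on all 6 arrays. Among the 30 were 6 genes that were well above background on neither ESC array, Hoxc8, Hoxc10, Hoxc11, Hoxc12, Hoxd4 and Hoxd9. By the probe that represents each gene, Hoxa13, Hoxb1 and Hoxd1 were well above background on no array. A second Hoxa13 probe was so on ESC replicate 1 only.

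**Figure D1:**
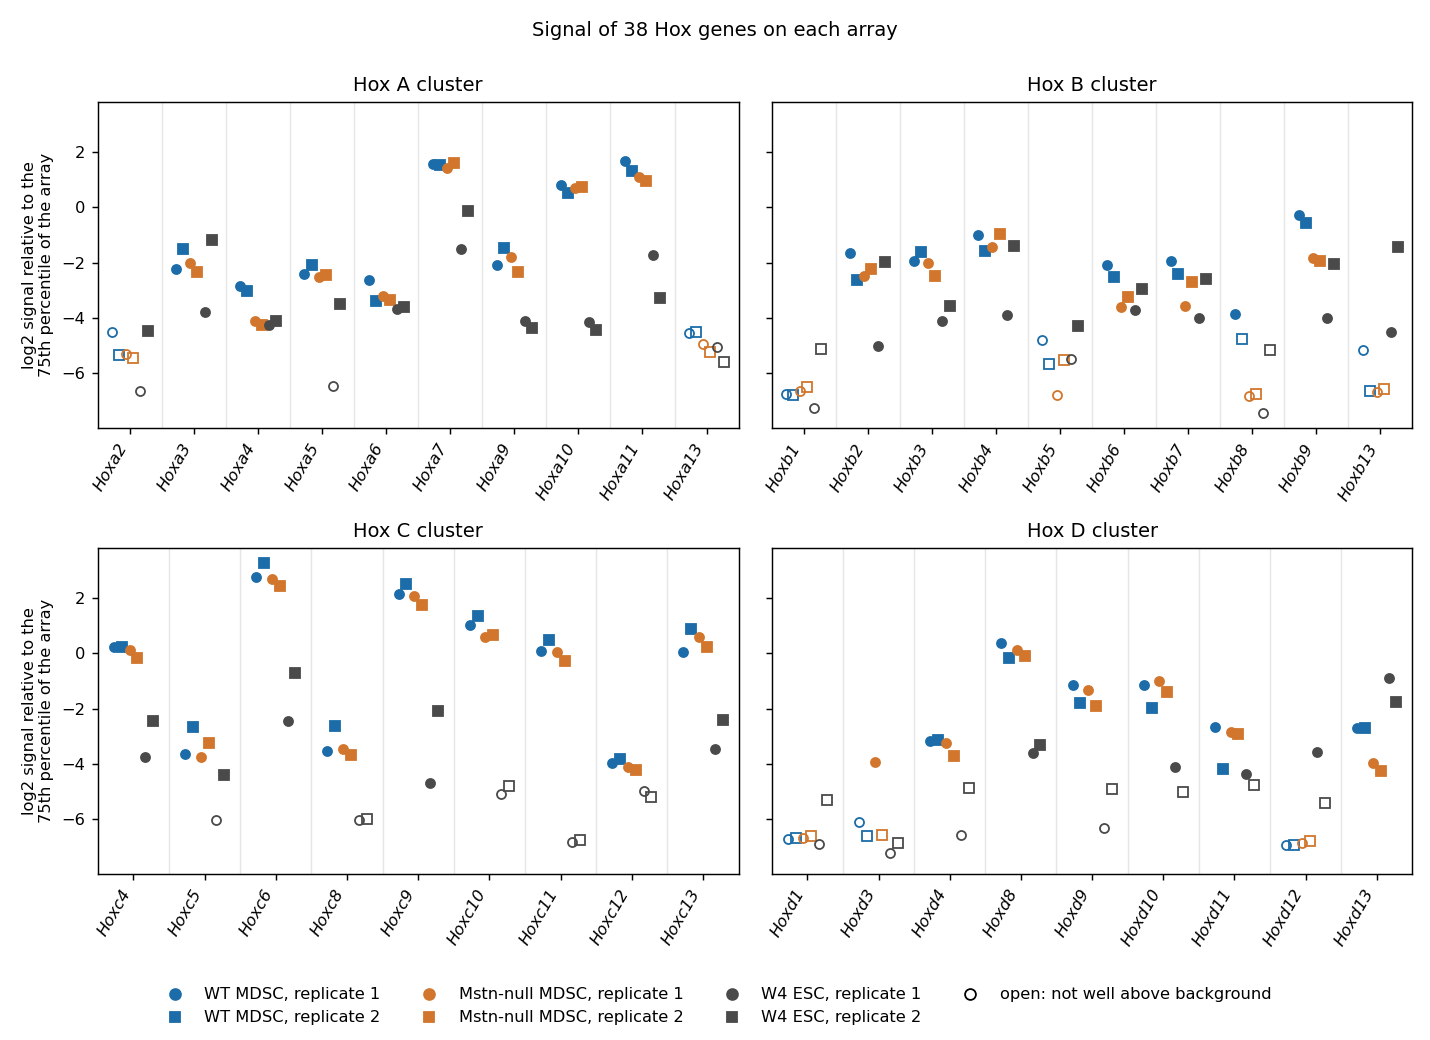
Log2 signal relative to the array's 75th percentile (y axis) of 38 Hox genes (x axis, by cluster and number) on each of the 6 arrays, with 1 point per array and open points where the gene was not well above background. In the C cluster all 4 MDSC points of each gene lie above both ESC points, while in the B cluster the groups overlap for most genes.

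The promoter windows of 4 genes of the D cluster are shown, because 3 of these genes rose and 1 fell in MDSC although they lie in 1 cluster. The letters are RefSeq's, build GRCm38.p6, the 250 bases before each start on the + strand of chromosome 2, and capitals mark CG dinucleotides.
Hoxd8, chr2:74704365-74704614: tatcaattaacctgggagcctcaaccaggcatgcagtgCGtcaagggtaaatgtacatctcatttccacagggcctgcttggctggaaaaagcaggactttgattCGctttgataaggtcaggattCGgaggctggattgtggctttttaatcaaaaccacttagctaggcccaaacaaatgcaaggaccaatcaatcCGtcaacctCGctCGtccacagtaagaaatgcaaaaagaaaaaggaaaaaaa
Hoxd9, chr2:74697513-74697762: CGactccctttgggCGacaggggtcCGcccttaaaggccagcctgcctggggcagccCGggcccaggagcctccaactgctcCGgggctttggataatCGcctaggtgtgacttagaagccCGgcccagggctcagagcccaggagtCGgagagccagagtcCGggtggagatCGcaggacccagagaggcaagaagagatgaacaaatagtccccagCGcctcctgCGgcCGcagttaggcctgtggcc
Hoxd10, chr2:74691641-74691890: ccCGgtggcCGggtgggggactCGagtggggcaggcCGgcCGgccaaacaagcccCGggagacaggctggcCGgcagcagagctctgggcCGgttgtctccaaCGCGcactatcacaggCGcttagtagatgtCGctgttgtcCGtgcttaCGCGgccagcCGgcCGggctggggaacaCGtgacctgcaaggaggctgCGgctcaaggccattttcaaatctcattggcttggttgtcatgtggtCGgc
Hoxd13, chr2:74667975-74668224: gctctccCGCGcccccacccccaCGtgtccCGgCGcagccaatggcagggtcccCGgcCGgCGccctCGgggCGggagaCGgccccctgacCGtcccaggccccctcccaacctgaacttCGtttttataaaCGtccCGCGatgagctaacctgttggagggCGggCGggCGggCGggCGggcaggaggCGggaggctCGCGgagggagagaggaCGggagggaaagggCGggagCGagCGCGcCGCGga
The windows hold 6 CG dinucleotides for Hoxd8, 13 for Hoxd9, 20 for Hoxd10 and 31 for Hoxd13. Counted over the same 250 bases in each of 24 windows that matched 22 Hox genes the median was 12.5, against 6 over all 32851 promoter windows of that length. CG-rich promoters are typical of Polycomb targets. The letters TTTAT, searched on both strands, occur in the Hoxd13 window and in none of the other three; 9 of the 24 Hox windows (37.5%) and 37.3% of all windows hold them. TGACAG, bound by Meis proteins, is in 2 of the 24 (8.33%) and in 15.9% of all windows. TGATNNAT, a form of the site bound by Hox proteins together with Pbx, is in 4 of the 24 (16.7%) and in 7.68% of all. These are matches of letters and not sites.

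Hox genes were mostly higher in MDSC than in ESC. The test covered the 31 members with both arrays of some group well above background. Of these, 22 rose in MDSC (71%, against 28.3% of all 25057 genes and features tested), 2 fell (6.45%, against 31.4%) and 7 did not pass (limma, Benjamini-Hochberg adjusted p over all genes tested). Some of the 22, among them Hoxc8, Hoxc10 and Hoxc11, were well above background in MDSC alone and entered the test through it. In a fit of genes well above background on all 6 arrays, 12 of 20 members rose, against 6150 of 19853 genes. In that fit 1 member fell, against 6093 genes. The median difference over the 31 was 2.32, or 1.88 with genes measured on 1 side only set at their bound, against -0.03 over all genes tested. With normexp background correction the median over members was 0.88 and the count that rose was again 22. All 9 tested members of the C cluster rose, 6 of 9 of the A cluster, 5 of 6 of the D cluster and 2 of 7 of the B cluster. The 2 genes that fell, Hoxb13 and Hoxd13, are of paralogue group 13, of which Hoxc13 rose and Hoxa13 was not tested. Counted by number, 1 of 4 tested members of groups 1 to 3 rose, 9 of 13 of groups 4 to 8 and 12 of 14 of groups 9 to 13. Cultures were measured in bulk, so fewer cells with a transcript and less of it per cell cannot be told apart. Slide 1 carried the WT arrays alone and slide 2 the other 4. An effect of slide and one of WT origin therefore cannot be told apart. Within slide 2, 18 members rose and 1 fell, against 5601 and 7353 of all 25057 genes tested.

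**Figure D2:**
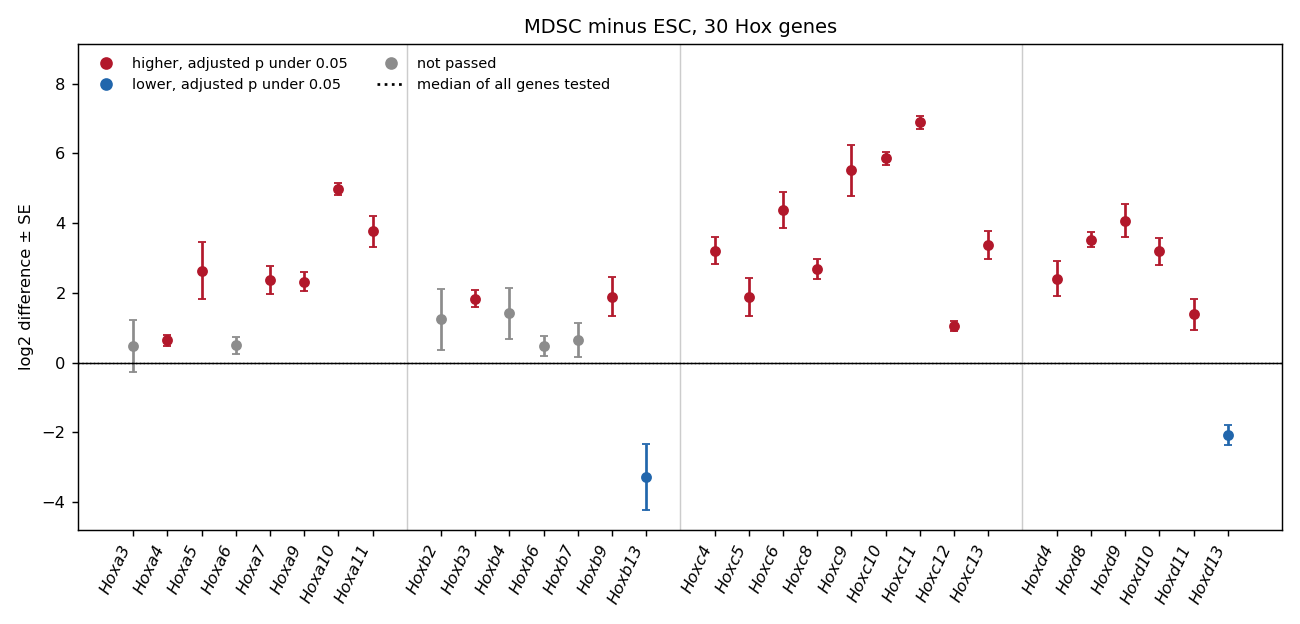
Log2 difference of the MDSC mean from the ESC mean (y axis, points, with the standard error of the fit as bars) for 30 of the Hox genes tested (x axis), coloured by whether the adjusted p is under 0.05. The 9 genes of the C cluster are all above 0, and Hoxb13 (-3.29) and Hoxd13 (-2.07) are the 2 genes below it that passed.

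The C cluster had the highest median difference of the 4 clusters, 3.37. Its genes pattern the trunk and, at the high-numbered end, the hindlimb. Hoxc10, a lumbar and hindlimb gene, read 1.02 and 1.36 on the WT arrays, 0.59 and 0.67 in cells labelled Mstn-null and -5.10 and -4.79 on the ESC arrays. Every MDSC array was well above background and neither ESC array was. By the fit the level was 57.9-fold higher in MDSC (limma adjusted p = 9.27e-05). For the bounds given as "at least", dim arrays were set at the higher of their own value and their lowest spot well above background. Both Hoxc10 values in ESC lay above that spot, so its bound equals the fitted fold. Hoxc11, which acts with its paralogues in the lower segments of the hindlimb, read 0.10 and 0.50 in WT, 0.06 and -0.29 in cells labelled Mstn-null and -6.83 and -6.77 in ESC. It was at least 36.2-fold higher in MDSC (limma adjusted p = 7.74e-05), again with no ESC array well above background.

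Hoxc9, which sets thoracic identity, read 2.16 and 2.51 in WT, 2.07 and 1.74 in cells labelled Mstn-null, and -4.69 and -2.10 in ESC. The difference was 5.51 ± 0.73 (SE; limma adjusted p = 0.00307), and the 2 ESC arrays lay 2.59 apart. Hoxc6, a thoracic and upper limb level gene, read 2.75 and 3.28 in WT, 2.69 2.69 and 2.44 in cells labelled Mstn-null, and -2.43 and -0.73 in ESC, a difference of 4.37 ± 0.51 (limma adjusted p = 0.00215). Both genes had all MDSC arrays above both ESC arrays. Hoxc13, known for its role in hair and nails, rose by 3.37 ± 0.39 and Hoxc4, a neck level gene, by 3.20 ± 0.39 (limma adjusted p = 0.00218 and 0.00237). The Hoxc13 levels were 0.05 and 0.87 in WT, 0.60 and 0.22 in cells labelled Mstn-null and -3.45 and -2.43 in ESC. Hoxc4 read 0.24, 0.22, 0.12 and -0.17 on the MDSC arrays in the same order and -3.75 and -2.45 on the ESC arrays. The remaining genes of the cluster were dimmer. Hoxc8, a brachial and thoracic gene, was at least 3.4-fold and Hoxc12 at least 1.9-fold higher in MDSC (limma adjusted p = 0.00159 and 0.00362). Hoxc5 rose by 1.88 ± 0.55 (limma adjusted p = 0.0344), but leaving out WT replicate 2, either array labelled Mstn-null or ESC replicate 1 ended its call, as did slide 2 alone, and the difference was 1.07 without ESC replicate 1.

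In the A cluster, where the median difference was 2.32, the largest differences were those of Hoxa10 and Hoxa11. Hoxa10, which acts in the lumbar region, the thigh and the uterus, read 0.79 and 0.51 in WT, 0.69 and 0.75 in cells labelled Mstn-null and -4.16 and -4.42 in ESC. The difference was 4.98 ± 0.17 (limma adjusted p = 1.16e-04), with all arrays well above background and little spread within any group. Hoxa11, needed for the forearm and shank, read 1.67, 1.31, 1.101 and 0.96 on the MDSC arrays and -1.74 and -3.27 on the ESC arrays. It rose by 3.76 ± 0.45 (limma adjusted p = 0.00231). Its probe is printed on 10 spots, which were averaged, as is that of Hoxb1, whereas each other Hox probe has 1. Hoxa7, a thoracic gene, read 1.56, 1.53, 1.43 and 1.61 on the MDSC arrays and -1.52 and -0.14 on the ESC arrays, a rise of 2.36 ± 0.40 (limma adjusted p = 0.00646). Hoxa9, active in blood progenitors and the trunk, rose by 2.32 ± 0.26 (limma adjusted p = 0.002). A second Hoxa9 probe gave 1.48 and also passed (limma adjusted p = 0.00352).

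Of the low-numbered A cluster genes, Hoxa5, a neck and lung gene, rose by 2.63 ± 0.83 (limma adjusted p = 0.0423), with -2.50 to -2.08 on the MDSC arrays, -3.50 on ESC replicate 2 and -6.47, not well above background, on ESC replicate 1. Leaving out any 1 MDSC array ended that call, although the difference was then 2.56 to 2.71, as did slide 2 alone, quantile normalization and no filter on dim genes. Hoxa4 read -2.85 and -3.01 in WT, -4.10 and -4.25 in cells labelled Mstn-null and -4.26 and -4.11 in ESC. Its rise over the mean of both kinds of MDSC was 0.63 ± 0.14 (limma adjusted p = 0.0163), but the arrays labelled Mstn-null lay at the ESC level. The difference was 0.01 within slide 2, and leaving out Mstn-null replicate 1 or ESC replicate 1 ended the call. Hoxa6 (0.49) and Hoxa3 (0.47) did not pass. Hoxa3 acts in the pharyngeal arches. Its MDSC levels lay between those of the ESC arrays, at -2.21 and -1.51 in WT and -2.01 and -2.34 in cells labelled Mstn-null, against -3.80 and -1.19 on ESC replicates 1 and 2.

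The D cluster held genes that rose and a gene that fell, with a median difference of 2.79. Hoxd8, a trunk gene, read 0.36 and -0.15 in WT, 0.13 and -0.11 in cells labelled Mstn-null and -3.62 and -3.33 in ESC, a rise of 3.53 ± 0.22 (limma adjusted p = 0.000442). Hoxd9, which acts in the upper limb segment with its paralogues, read -1.16, -1.80, -1.32 and -1.91 on the MDSC arrays and was well above background on neither ESC array, a level at least 11.6-fold higher in MDSC (limma adjusted p = 0.00211). Hoxd10, a lumbar and hindlimb gene, read -1.14, -1.98, -1.01 and -1.41 on the MDSC arrays and -4.12 and -5.03 in ESC, where replicate 2 was not well above background. It rose by 3.19 ± 0.38 (limma adjusted p = 0.00226). Hoxd13, which shapes the digits, went the other way. Its levels were -2.71 and -2.71 in WT, -3.97 and -4.25 in cells labelled Mstn-null and -0.90 and -1.77 in ESC, so that every ESC array lay above every MDSC array. It fell by 2.07 ± 0.28 in MDSC (limma adjusted p = 0.00323). Hoxd4, a neck level gene, was at least 3.4-fold higher in MDSC (limma adjusted p = 0.0123). Hoxd11, the partner of Hoxa11 in the forearm, rose by 1.38 ± 0.45 (limma adjusted p = 0.047). Leaving out either array labelled Mstn-null or either ESC array, or using no filter on dim genes, ended the Hoxd11 call.

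The B cluster had the lowest median difference of the 4 clusters, 1.23. Hoxb3, a hindbrain and neck gene, read -1.93 and -1.62 in WT, -2.01 and -2.47 in cells labelled Mstn-null and -4.10 and -3.58 in ESC, a rise of 1.83 ± 0.24 (limma adjusted p = 0.00313). A second Hoxb3 probe, well above background on 3 arrays, gave 2.39 and did not pass (limma adjusted p = 0.0802). Hoxb9, a thoracic gene, read -0.26 and -0.54 in WT, -1.83 and -1.94 in cells labelled Mstn-null and -4.01 and -2.05 in ESC. Its rise was 1.89 ± 0.56 (limma adjusted p = 0.0355) and was lost when any one MDSC array was left out, with no filter on dim genes and within slide 2, where it was 1.15. Hoxb2 (1.23), Hoxb4 (1.41), Hoxb6 (0.47) and Hoxb7 (0.65) did not pass. For each of these 4 genes ESC replicate 1 lay below all MDSC arrays and ESC replicate 2 lay among them. Hoxb13, a gene of the tail bud and prostate, was well above background on the ESC arrays alone, at -4.50 and -1.44, and was at least 3.2-fold lower in MDSC (limma adjusted p = 0.0324). This call was lost without WT replicate 2, without either array labelled Mstn-null and without ESC replicate 2, and the fitted difference was -1.76 without the last. It was also lost within slide 2, under quantile normalization and under normexp, where the difference was -1.01.

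The remaining 8 members were not tested, since no group had both arrays well above background. Hoxa2 and Hoxb5 were well above background on ESC replicate 2 alone (-4.45 and -4.30) and Hoxd12 on ESC replicate 1 alone (-3.58). Hoxb8 was so on WT replicate 1 alone (-3.84) and Hoxd3 on Mstn-null replicate 1 alone (-3.95). The other three are Hoxa13, Hoxb1 and Hoxd1. Of these 8 genes, Hoxa2, Hoxb1, Hoxd1 and Hoxd3 belong to paralogue groups 1 to 3, whose 8 members are thereby reduced to 4 in the test.

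The difference between MDSC and ESC did not follow gene number in the same way in every cluster. As a description, Spearman's rho of the difference with the gene number was computed. It was 0.833 over 9 genes of the A cluster and 0.200 over 9 of the C cluster. Over 7 genes of the B cluster, Hoxb13 included, it was -0.321. Over 6 of the D cluster, Hoxd13 included, it was -0.600. Over all 31 it was 0.262, and 0.532 over the 29 left without Hoxb13 and Hoxd13, the genes called lower in MDSC. These were left out because of the sign of their difference, while Hoxc13, which rose, was kept. Both have high numbers, so leaving them out raises rho by itself. The value of 0.532 is therefore no evidence that the difference follows gene number. All these genes were read from the same 6 arrays.

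The ESC arrays differed from each other over the Hox genes more than the MDSC arrays did. The gap between the 2 arrays of a group had a median size of 1.31 over the 31 tested members in ESC, 0.43 in WT and 0.26 in cells labelled Mstn-null, against 0.29, 0.27 and 0.20 over all genes tested. Some of the 31 were not well above background on 1 or both ESC arrays, so that the size of their ESC gap is uncertain, among them Hoxa5, Hoxc5, Hoxd4 and Hoxd9. For the 21 members well above background on both ESC arrays the median size of the ESC gap was 1.38, against 0.27 over the 23103 such genes in all, and it was above 1 for 13 of the 21, against 2075 of the 23103. Replicate 2, at passage 15, was the higher ESC array for 17 of the 21 and for 13246 of the 23103. It was higher for 4 of 4 such members of groups 1 to 3, 9 of 9 of groups 4 to 8 and 4 of 8 of groups 9 to 13. With the sign kept, the medians of replicate 2 minus replicate 1 were 2.82, 1.31 and 0.39 in the same order. In groups 9 to 13 gaps of both signs offset each other, so 0.39 is not the typical size of a gap there. High gaps among the 21 were those of Hoxb13 (3.07), Hoxb2 (3.03) and Hoxa3 (2.61), while Hoxa11 lay 1.53 lower on replicate 2. With 1 array for each passage, there is no replicate check of this difference, and passage and replicate cannot be told apart.

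**Figure D3:**
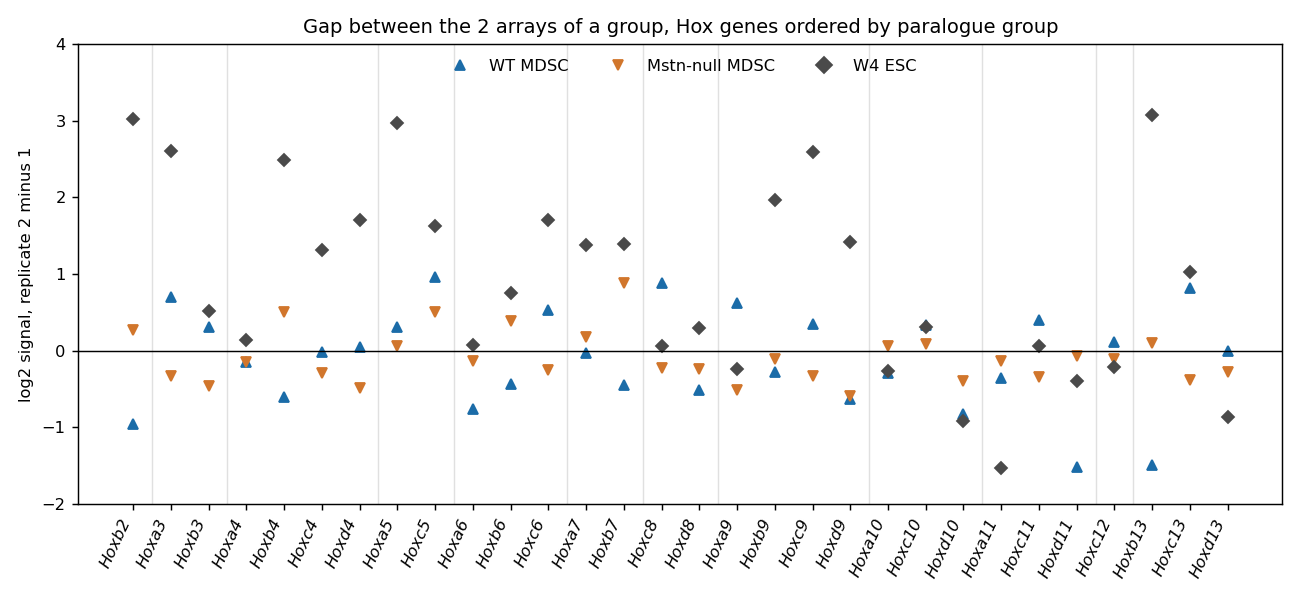
Log2 signal of replicate 2 minus replicate 1 (y axis) within WT MDSC, MDSC labelled Mstn-null and W4 ESC for 30 of the Hox genes tested, ordered by paralogue group (x axis). The ESC points are above 0 for the 16 genes drawn of groups 1 to 8 and on both sides of it for groups 9 to 13, genes not well above background on an ESC array included, and the MDSC points lie closer to 0 for most genes.

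Other genes moved between the ESC arrays too. Cdx1 and Cdx2, caudal-type factors that switch on Hox genes in the embryo, read -0.82 and -3.67 on ESC replicate 1 and 0.63 and -0.70 on replicate 2, and Cyp26a1, a retinoic acid-degrading enzyme induced by retinoic acid, read -4.02 and -1.85. The fibroblast markers moved in the opposite direction, with 9 of 10 lower on replicate 2. The pluripotency markers differed little, with 7 of 8 higher on replicate 2. The part of these genes in the Hox difference was not tested. Several Hox results depended on which ESC array was kept. Hoxa3 (1.78), Hoxb2 (2.75) and Hoxb4 (2.66) passed as higher in MDSC without replicate 2. Among the genes called as higher and well above background on both ESC arrays, Hoxb9 was 0.91 without replicate 1 and 2.87 without replicate 2, and Hoxc9 4.22 and 6.80. Hoxa10 (5.11 and 4.84) and Hoxd8 (3.38 and 3.67) moved little. With replicate 2 as the only ESC array, the median difference over all 31 members was 1.57, against -0.02 over all genes tested. Keeping replicate 1 as the only one gave medians of 2.73 and -0.03.

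Set against ESC separately, the MDSC groups gave similar counts. WT MDSC had 20 members higher than ESC (64.5%, against 27.1% of all genes tested) and 1 lower, Hoxd13 (3.23%, against 25.9%). MDSC labelled Mstn-null had 18 members higher (58.1%, against 23.3%) and 2 lower, Hoxb13 and Hoxd13 (6.45%, against 30.8%). Both comparisons share the ESC arrays. Hoxa4 and Hoxb9 passed in WT alone, at 1.25 and 2.63 against 0.01 and 1.15, as did Hoxc5, at 2.05 against 1.71. Hoxd11 passed in cells labelled Mstn-null alone, at 1.65 against 1.11 in WT. None of these genes passed the test of the difference between the genotypes. The Hoxc5 call in WT (limma adjusted p = 0.0449) was lost without either WT array, either array labelled Mstn-null or ESC replicate 1, and under quantile normalization, no filter on dim genes and only the groups compared. The Hoxd11 call in cells labelled Mstn-null (limma adjusted p = 0.0461) was lost without either of their arrays or either ESC array and with no filter, and the Hoxb9 call in WT without either WT array. Leaving out either WT array ended the Hoxd13 call in WT, and leaving out any MDSC array or ESC replicate 2 ended the Hoxb13 call in cells labelled Mstn-null. By the fit Hoxc10 was 70.2-fold above ESC in WT and 47.7-fold in cells labelled Mstn-null, with neither ESC array well above background. Hoxc11 was at least 41.8-fold and 31.4-fold above ESC in the same order.

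Between the labelled genotypes no Hox gene passed. Because the WT arrays were on slide 1 and those labelled Mstn-null on slide 2, genotype and slide cannot be told apart in any difference between them. Of the 31 members 0 passed in either direction (limma, adjusted p), and 0% of all 25057 genes tested did; the smallest adjusted p of a member was 0.0775. At an unadjusted limma p under 0.05, 4 members were lower in cells labelled Mstn-null (10.5% of all genes tested were) and 0 were higher (4.19%). Those 4 were Hoxa4, Hoxb6, Hoxc10 and Hoxd13. Hoxa4 differed by -1.24 ± 0.17, with the levels given above. Hoxd13 differed by -1.40 ± 0.32 (adjusted p = 0.156). Hoxb6, a trunk gene, read -2.10 and -2.53 in WT and -3.62 and -3.23 in cells labelled Mstn-null, a difference of -1.11 ± 0.33 (adjusted p = 0.231). Hoxc10 differed by -0.56 ± 0.21 (adjusted p = 0.319), and its arrays did not overlap. Hoxb9 differed by -1.48 ± 0.64, also with no overlap, at an adjusted p of 0.395.

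Most members lay on the lower side in cells labelled Mstn-null. The difference was negative for 27 of the 31, and for 15857 of all 25057 genes tested. Its median was -0.32 over the members against -0.12 over all genes tested. With each array centred on its median instead, the member median was -0.16 against 0.04 over all genes. Both arrays labelled Mstn-null lay below both WT arrays for 15 members, where 34.8% of all genes tested did so, and above both for 0, where 16.6% did. The positive differences were those of Hoxd11 (0.54), Hoxd10 (0.35), Hoxb4 (0.08) and Hoxa10 (0.07). With 2 arrays against 2, an exact two-sided permutation test cannot give a p below 0.333. For the 4 MDSC arrays against the 2 ESC arrays that limit is 0.0667, so the calls between MDSC and ESC rest on the limma model. Marker levels differed between the genotypes as well. All 6 macrophage markers tested were higher on both arrays labelled Mstn-null, with mean levels of 1.93 and 3.85 against 0.17 and -0.997 in WT, and 4 of 5 myogenic markers were lower on both. Their part in the Hox values was not tested.

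**Figure D4:**
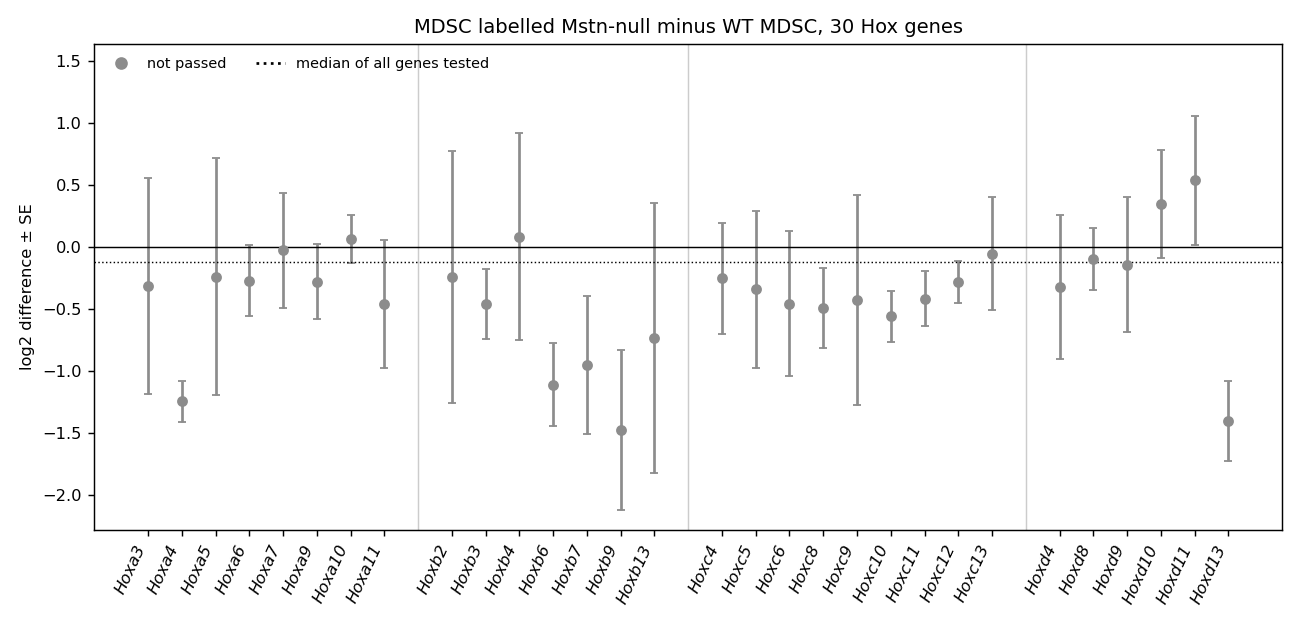
Log2 difference of MDSC labelled Mstn-null from WT MDSC (y axis, points, with the standard error of the fit as bars) for 30 of the Hox genes tested (x axis), with the median of all genes tested as a dotted line at -0.12. None passed, most are below 0, and Hoxa4, Hoxb9 and Hoxd13 are the lowest.

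Genes that work with or around the Hox genes were read from the same arrays. Their counts stand beside the 28.3% of all genes tested that rose in MDSC and the 31.4% that fell (limma, adjusted p). Of 9 cofactor genes, 4 rose (44.4%) and 2 fell (22.2%). Meis3 (3.30), Pknox2 (2.81), Meis2 (1.93) and Pbx3 (0.64) rose, Pbx4 (-1.41) and Pbx2 (-0.89) fell, and Meis1 (1.15) and Pknox1 (-0.32) were among those that did not pass. These proteins bind DNA together with Hox proteins. Of 14 upstream regulators 12 were tested, and 5 rose (41.7%) and 3 fell (25%). Aldh1a2, which makes retinoic acid, rose by 4.64, Cyp26b1, which degrades it, by 4.86, Egr2 by 4.75 and the trunk-to-tail signal Gdf11 by 2.43. Cdx1 fell by 4.67, and Cdx2 and Cyp26a1 were at least 5.5-fold and 3.3-fold lower in MDSC. Men1, Rara, Rarb and Rarg did not pass.

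The products of Polycomb genes keep Hox clusters silent. Of 12 tested, 7 fell in MDSC (58.3%, against 31.4% of all genes tested) and 4 rose (33.3%, against 28.3%). Those that fell were Jarid2 (-4.65), Ezh2 (-2.92), Cbx2 (-2.58), Eed (-2.49), Suz12 (-1.86), Rnf2 (-0.94) and Cbx7, which was at least 10.2-fold lower. Among those that rose were Bmi1 (2.40), Cbx8 (2.38) and Ring1 (1.08), and Ezh1 (-0.25) did not pass. The part of the Polycomb genes in the Hox difference was not tested. Of 25 flanking genes and noncoding RNAs 10 had a probe and 8 were tested; 1 rose (12.5%) and 2 fell (25%). Hoxa11os, transcribed opposite Hoxa11, rose by 2.75, Smug1 fell by 0.55 and Evx1, beside Hoxa13, was at least 1.6-fold lower. Calcoco1, Lnpk, Mtx2, Skap1 and Skap2 did not pass, with differences of -0.02 to 0.31. Of 10 limb genes, 8 rose (80%, against 28.3%) and 0 fell (against 31.4%). Pitx1, the hindlimb determinant, rose by 5.29, its target Tbx4 by 1.48, the forelimb gene Tbx5 by 2.00 and Prrx1, a limb mesenchyme gene, by 3.86, while Shox2 was at least 27.2-fold higher. None of the genes of these 5 lists passed between the genotypes; the median difference over all genes tested was -0.12.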

How the data were processed

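Per the labels' protocols, 0.5 ug of total RNA from each of 6 cultures was Cy3-labelled for a 1-colour Agilent mouse array. The deposited files hold the intensity of every spot as read by the authors with Agilent Feature Extraction (the file headers give version 10.7.1.1, the submitters' processing notes 9.1). Per the file headers, this intensity was corrected for background and the array design used mm9.

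Levels are log2 signals after subtraction of the array's own 75th percentile over non-control spots. Between 100 and 122 outlier spots per array were left out, and the spots of each probe averaged. Probes were named through RefSeq (GRCm38.p6); no gene coordinates are given, because the builds differ. The probe with the highest mean represented a gene, and genes entered the test if both arrays of some group were well above background. A model of the 3 group means was fitted by limma 3.58.1 in R 4.3.3 (two-sided, 3 residual and 2.02 prior degrees of freedom, Benjamini-Hochberg, threshold 0.05). MDSC is the mean of both genotypes' means. Nothing in the labels says whether isolations came from different animals, so p-values measure only the spread between these samples. The fit was tested on simulated data.

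Every Hox gene could be named, and other genes from lists of cofactors, upstream regulators, Polycomb genes, cluster neighbours and limb genes. Some genes are in the counts but are not reported here one by one. The members and lists were chosen with earlier results of these data known. Alternatives were normexp (offset 50), quantile and median scaling, other filters, flags and probe rules, a variance trend, only the groups compared, slide 2 alone, a replicate block and each array left out. The main fit did not pair the genotypes by replicate number. The deviations of WT and Mstn-null arrays of the same number correlated with r of -0.397 over 25057 genes. With 2 arrays of each genotype, that value cannot decide whether cultures of the same number belong together.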

Additional observations from a re-analysis of the deposited data

How the results depend on the processing

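Of the 24 Hox genes called between MDSC and ESC, 18 kept their direction and call under all of the 16 alternatives that tested them: 17 that were higher in MDSC, and Hoxd13. The other calls, higher for Hoxa4, Hoxa5, Hoxb9, Hoxc5 and Hoxd11 and lower for Hoxb13, were lost under 1 or more, and 5 of the 7 genes that had not passed did so under 1 or more. With genes well above background on all arrays, fewer members are tested, namely 20. Of these, 12 were higher in MDSC, 13 in WT and 10 in cells labelled Mstn-null. Of the 19853 genes tested in that setting, 6150, 5920 and 5192 were higher, in the same order. The count of members lower in MDSC was 1 under quantile normalization, normexp, genes above background on all arrays and slide 2 alone, and 1 to 3 when leaving out 1 array. The count lower in MDSC labelled Mstn-null was 1 under the same 4 settings and with only the groups compared, and 1 to 3 when leaving out 1 array. For WT it was 2 with no filter and 0 to 3 when leaving out 1 array. The median difference of MDSC from ESC was 0.88 under normexp, 1.41 with no filter, 1.86 with genes above background on all arrays and 1.57 (without ESC replicate 1) to 2.73 (without ESC replicate 2) when leaving out 1 array. Median centring moved the median over all genes tested from -0.03 to 0.12. Differences between MDSC and ESC changed sign for Hoxa3 (-0.83 to 1.78 when leaving out 1 array), Hoxb2 (-0.28 to 2.75), Hoxb7 (-0.043 to 1.35) and Hoxb6 (-0.088 within slide 2). The Hoxa4 difference of cells labelled Mstn-null from ESC ranged from -0.063 to 0.084 when leaving out 1 array. The cause of these changes was not tested, beyond the arrays left out. A fit that leaves a group with 1 array assumes that it varies like the others.

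Between the genotypes, no Hox gene passed under any alternative run. With the replicate block 0 members passed and the median difference was -0.32; Hoxa4 then had an adjusted p of 0.417. The same-numbered arrays of the genotypes deviated in opposite directions, so a crossed pairing was added after seeing the data, and 0 members passed in it as well. Levels near the background limit what could be measured: 8 of the 39 genes could not be tested. For 6 called genes neither ESC array was well above background, so they have only a bound, which for Hoxc10 equals the fitted fold.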
